A study of Gallus gallus with 8 samples.

Results

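The loci described here are those of the homeobox, PAX and EYA transcription factor families, some of which act in the eye and others in the patterning of other organs. They were chosen by gene name alone, as every locus of the deposited expression table with a name of the families PAX, PROX, sine oculis homeobox (SIX6 and its relatives), EYA, DACH, PITX, OTX, VSX, RAX, MEIS, PBX, PKNOX, TGIF, IRX, LHX, LMX1, ISL, MSX, DLX, EMX, NKX, HOX, POU, ZEB, ZFHX, TSHZ, SATB or CUX. This gave 131 of 16906 loci with 112 distinct names, of which 30 loci carried a name given to more than 1 locus. Lenses of chickens at embryonic day 13 were dissected into the central (EC) and the equatorial (EQ) part of the epithelium and the cortical (FP) and the central (FC) part of the fiber mass, with no treatment or genetic change named for any region. From each region 2 directional mRNA libraries were sequenced, each from a pool of 100 lenses, so that each pool averages many animals and the same lenses may stand behind libraries of more than 1 region. The table gives FPKM, the number of fragments scaled to exon length and to library size, 1 value for each region pooled over its 2 libraries, with a 95% interval from cuffdiff. That interval is the error given below, since no values for single libraries were analysed here, and the table does not give the read depth behind each value. No test between regions was therefore made, and differences are given as ratios of FPKM together with the overlap of intervals.

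The proteins of these families act in a known hierarchy in the eye. PAX6, a factor with a paired domain and a homeodomain, is needed to form the lens, and works with sine oculis homeodomain proteins such as SIX6, with EYA phosphatases that bind these proteins and activate transcription, and with DACH cofactors. PITX3 and PROX1 act later in the lens, and in the mouse loss of the first arrests lens growth and loss of the second stops fiber cells from elongating. MEIS, PBX, PKNOX and TGIF proteins share a homeodomain with a longer loop, and either bind DNA with other homeodomain proteins or repress transcription.

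Transcripts of these families were present at very unequal levels. A mean FPKM over the 4 regions of at least 1 was found for 35 of the 131 loci, a further 71 were above 0 in at least 1 region but below that mean, and 25, all of the HOX family, were listed at 0 in all 4 regions. The lowest means that were counted were 1.04 for HOXB1, 1.04 for IRX5 and 1.12 for LHX2, and the highest that were not were 0.896 for TSHZ3 and 0.879 for HOXB4. The FPKM of all 131 loci summed to 984 in EC, 967 in EQ, and in the fibers 1098 (FP) and 1129 (FC). PITX3 and PAX6, listed as PAX-6, together made up 62.9% of this sum in EC and 62.8% in EQ, against 77.0% in FP and 78.1% in FC. Within that pair the shares were nearly equal in EC, where PAX6 held 31.6% and PITX3 31.3% of the sum. In EQ they were 21.5% and 41.4%, and in FC 5.13% and 73.0%.

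**Figure D1:**
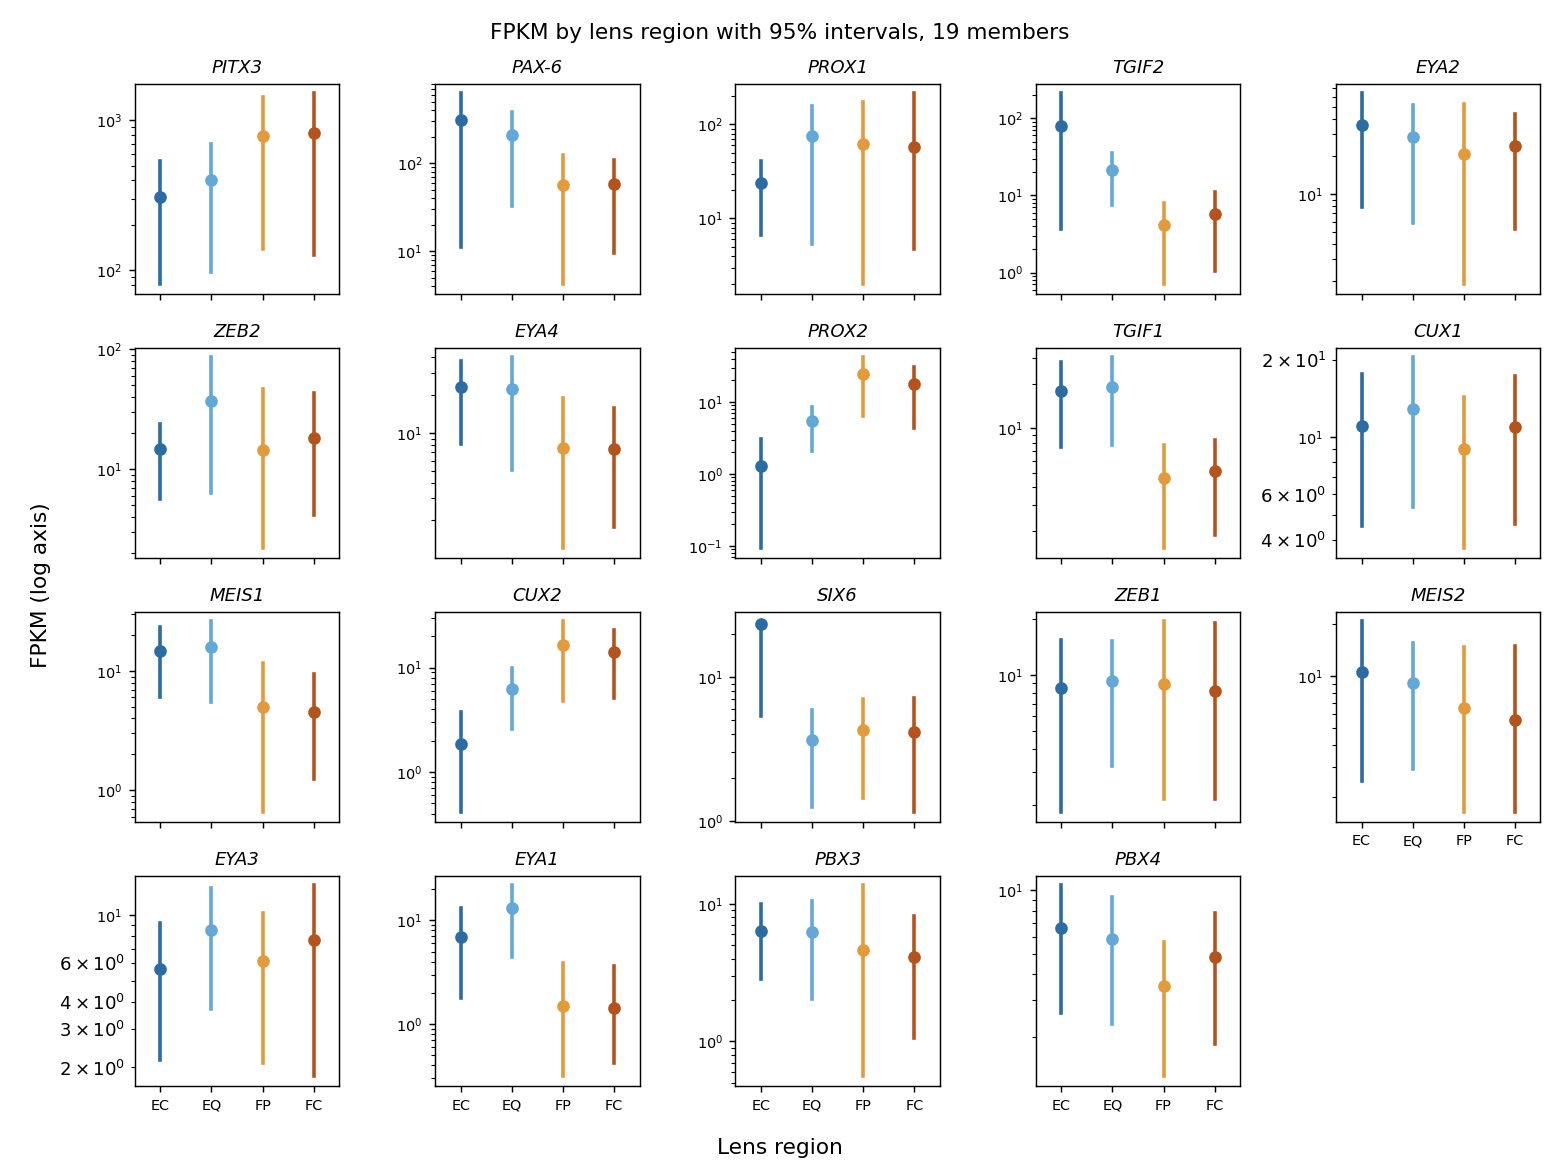
FPKM (log axis) of 19 of the 20 loci with a mean FPKM of at least 5 or with a ratio of at least 2 and separate intervals, in EC, EQ, FP and FC, where points are the authors' pooled values and bars their 95% intervals. PITX3 is highest in FC at 824, PAX-6 in EC at 311, and the bars of most genes overlap between all regions.

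PITX3 had the highest FPKM of all members in EQ, FP and FC and the second highest in EC. Its locus is listed at 16356821 to 16374750 of chromosome 6 (Galgal4, the build of all coordinates below). Its FPKM was 308 (81.1 to 535) in EC and 399.9 (97.2 to 701) in EQ, while FP had 788 (139 to 1436) and FC 824 (127 to 1519). In FP this placed PITX3 at rank 121 of all 16906 loci. The level was lowest in the central epithelium and highest in the central fibers, with overlapping intervals in all 4 regions, and the summed fiber value was 2.28-fold that of the epithelium. PITX1 was far lower and had its lowest value in EC too. This gene, known for its part in the hindlimb and the pituitary, was at 0.919 in EC, 1.61 in EQ, and in the fibers 3.13 (FP) and 3.47 (FC).

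PAX6 was higher in both epithelial regions than in both fiber regions. Its FPKM was 311 (11.3 to 627) in EC and 208 (33.0 to 383) in EQ, while FP had 57.0 (4.27 to 125) and FC 57.9 (9.53 to 109.8), for the locus at 5217601 to 5235474 of chromosome 5. The FP and FC values were nearly equal, and the intervals of all 4 regions overlapped. Between EQ and FP the value was 3.65-fold lower, and the summed value of the fibers was 4.52-fold below that of the epithelium. PAX7, listed as PAX-7 and best known from muscle stem cells and neural crest, was also higher in the epithelium than in the fibers, at a much lower level, with 7.16 (0.815 to 16.6) in EC and 5.61 (2.15 to 9.06) in EQ, while FP had 1.58 (0.347 to 2.81) and FC 1.20 (0.230 to 2.16). The other 5 PAX loci, PAX1, PAX2, PAX3, PAX5 and PAX9, had means below 1.

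**Figure D2:**
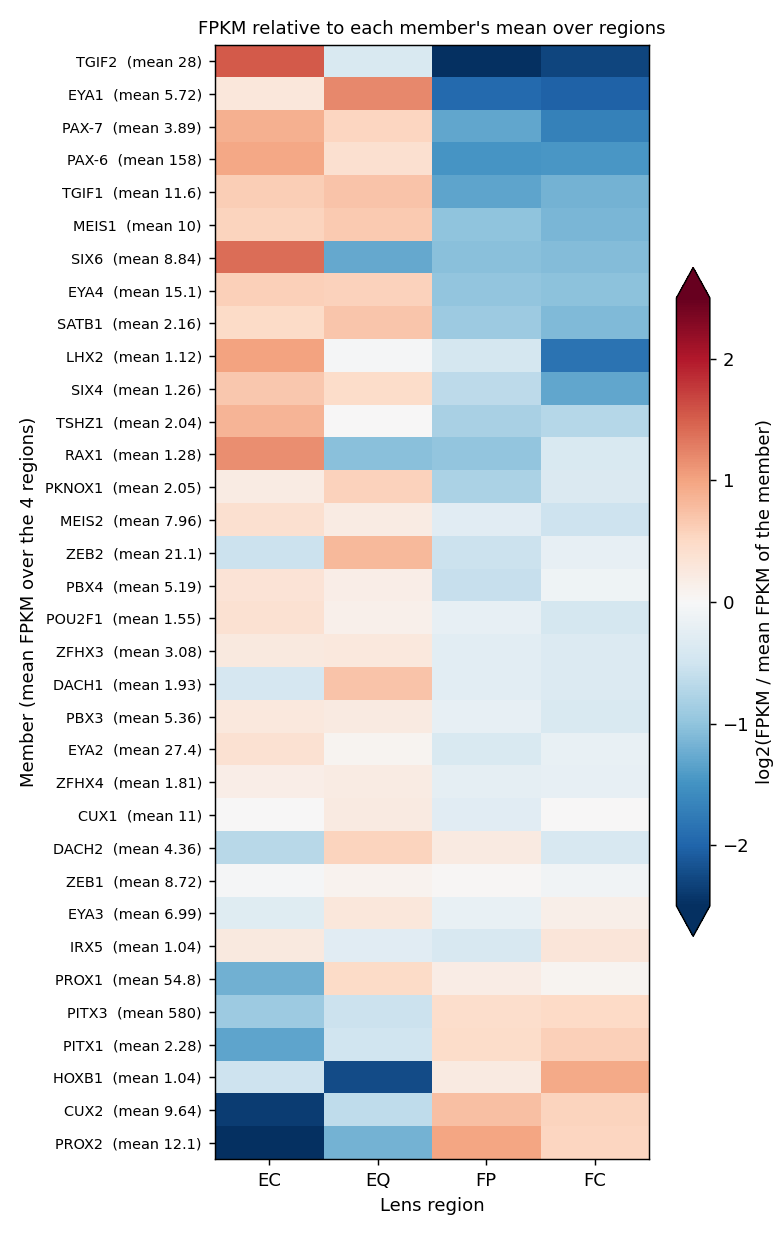
log2 of the FPKM in each region over the mean of the 4 regions (color, cut off at the ends of the scale) for 34 of the 35 members with a mean FPKM of at least 1, ordered by the ratio of fibers over epithelium. TGIF2 stands at the end with the lowest fiber values and PROX2 at the end with the highest.

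PROX1 and PROX2 were both lowest in the central epithelium. PROX1, at 20621642 to 20663010 of chromosome 3, had an FPKM of 23.9 (6.68 to 40.9) in EC and 76.0 (5.31 to 156) in EQ, while FP had 62.1 (2.00 to 174) and FC 57.5 (4.70 to 215). Its one step past 2-fold was from EC to EQ, where it was 3.18-fold higher, and the intervals overlapped. PROX2, a close relative of PROX1, lies at 37362677 to 37367922 of chromosome 5. It stood at 1.29 (0.0931 to 3.10) in EC and 5.37 (2.08 to 8.66) in EQ, while FP had 24.1 (6.33 to 41.9) and FC 17.6 (4.42 to 30.9). Both fiber intervals lay wholly above that of EC. PROX2 was 4.18-fold higher in EQ than in EC and 4.49-fold higher in FP than in EQ, the largest ratio of fibers over epithelium among the counted members at 6.27-fold. PROX2 made up 5.11% of the summed PROX FPKM in EC and 6.61% in EQ, against 28.0% in FP and 23.5% in FC.

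The 4 EYA genes differed from one another. EYA2 had the highest level of them in each region, with 35.9 (7.82 to 64.1) in EC and 28.7 (5.91 to 52.0) in EQ, while FP had 21.0 (1.90 to 52.2) and FC 24.2 (5.25 to 43.9), and stayed within 2-fold. EYA4 was at 23.0 (8.20 to 37.8), 22.5 (5.02 to 40.1), 7.62 (1.20 to 18.9) and 7.41 (1.76 to 15.8) in the same order, 2.96-fold lower in FP than in EQ. EYA3 stayed within 2-fold, between 5.66 in EC and 8.49 in EQ. EYA1, at 116629418 to 116718405 of chromosome 2, was highest in the equatorial epithelium, where cells leave the cell cycle and begin to differentiate. Its FPKM was 6.91 (1.78 to 13.2) in EC and 13.1 (4.43 to 21.7) in EQ, while FP had 1.48 (0.314 to 3.87) and FC 1.42 (0.418 to 3.63). As deposited, the EQ interval lay wholly above those of FP and FC. With regions scaled to a common median ratio the intervals of EQ and FP overlapped (lower bound 3.89 in EQ, upper bound 4.19 in FP), and with regions rescaled to the same total FPKM both pairs did. The level was 8.80-fold lower in FP than in EQ. EYA1 held 18.0% of the summed EYA FPKM in EQ and 4.09% in FP.

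DACH1 and DACH2 were also highest in EQ. DACH2 was at 2.69 in EC and 6.39 in EQ, against 5.09 in FP and 3.29 in FC, and DACH1 at 1.45, 3.15, 1.60 and 1.53, so that both were past 2-fold from EC to EQ, at 2.37-fold and 2.18-fold higher. Of the sine oculis genes, SIX6 was the highest in every region and is taken up below with the other genes of the eye field. SIX4 was at 2.01 in EC, 1.73 in EQ, and in the fibers 0.801 (FP) and 0.514 (FC), and SIX2 did not exceed 0.692 in any region.

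**Figure D3:**
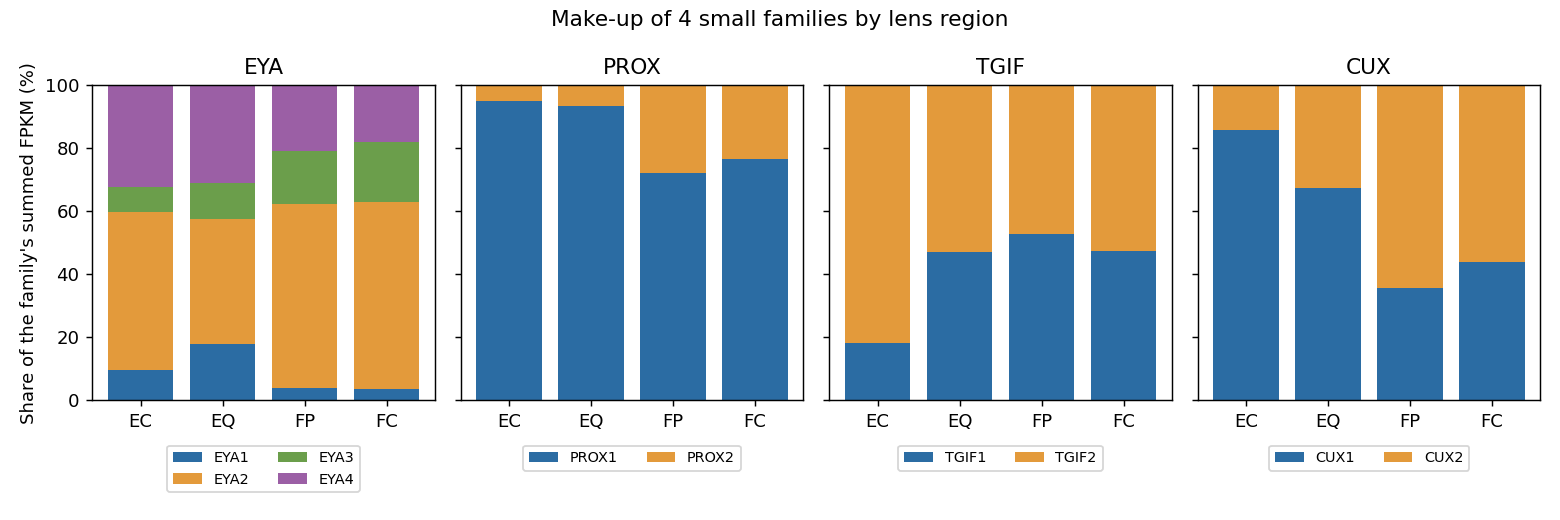
Share (%) of each member in the summed FPKM of the EYA, PROX, TGIF and CUX genes in EC, EQ, FP and FC, in stacked bars from 0 to 100. CUX2 goes from 14.4% of the CUX sum in EC to 64.3% in FP, and TGIF2 from 81.9% of the TGIF sum in EC to 47.3% in FP.

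Among the genes with the longer homeodomain loop, the TGIF corepressors were the most unequal between regions. TGIF2, at 447631 to 450337 of chromosome 20, had an FPKM of 80.6 (3.70 to 212) in EC and 21.4 (7.56 to 35.4) in EQ, while FP had 4.15 (0.709 to 7.90) and FC 5.68 (1.03 to 11.2). It was 3.76-fold lower in EQ than in EC, 5.16-fold lower in FP than in EQ and 10.4-fold lower in the fibers than in the epithelium, the largest such ratio among the counted members. Its EC interval was wide and overlapped that of every other region. TGIF1 stood at 17.8 (7.45 to 28.0) in EC and 19.0 (7.69 to 30.3) in EQ, while FP had 4.63 (1.54 to 7.69) and FC 5.10 (1.89 to 8.28). In contrast with TGIF2 it hardly differed between EC and EQ, and was 4.09-fold lower in FP than in EQ, where the upper bound of FP and the lower bound of EQ were both 7.69 after rounding.

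The MEIS and PBX genes differed less. MEIS1, which binds an enhancer of Pax6 in the mouse lens, was at 14.7 (6.10 to 23.4) in EC and 15.9 (5.54 to 26.2) in EQ, while FP had 4.99 (0.652 to 11.7) and FC 4.51 (1.24 to 9.39), 3.18-fold lower in FP than in EQ. MEIS2 was at 10.5 in EC, 9.16 in EQ, and in the fibers 6.55 (FP) and 5.58 (FC), within 2-fold at each step, so that MEIS1 was the higher of the pair in the epithelium and MEIS2 in the fibers, with overlapping intervals. PBX3 (6.41 in EC to 4.13 in FC) and PBX4 (6.60 in EC, 3.49 in FP) stayed within 2-fold. PKNOX1, a partner of PBX proteins, was 2.57-fold lower in FP, at 1.19, than in EQ, at 3.06. IRX5 lay between 0.792 and 1.29, and its interval reached 0 in every region.

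CUX2 and CUX1, the cut homeodomain genes, were unlike each other. CUX1 was at 11.1 (4.54 to 17.6) in EC and 12.9 (5.34 to 20.5) in EQ, while FP had 9.04 (3.71 to 14.3) and FC 11.0 (4.60 to 17.4), within 2-fold throughout. CUX2, at 6068671 to 6091728 of chromosome 15, was at 1.87 (0.411 to 3.74) in EC and 6.22 (2.58 to 9.86) in EQ, while FP had 16.3 (4.84 to 27.8) and FC 14.1 (5.11 to 23.2), with both fiber intervals wholly above that of EC. It was 3.33-fold higher in EQ than in EC and 2.62-fold higher in FP than in EQ. CUX2 and PROX2 were the counted members that were past 2-fold upward in both of these steps. SATB1, a chromatin organizer, was 3.00-fold lower in FP, at 1.16, than in EQ, at 3.48.

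Of the zinc finger homeodomain genes, ZEB2, a repressor that binds Smad proteins, was highest in EQ. It was at 14.6 (5.60 to 23.6) in EC and 37.0 (6.30 to 85.8) in EQ, while FP had 14.5 (2.19 to 46.8) and FC 18.3 (4.18 to 43.2), 2.53-fold higher in EQ than in EC and 2.55-fold lower in FP than in EQ, with overlapping intervals. ZEB1, in contrast, stayed between 8.21 and 9.24 in all regions. ZFHX3 and ZFHX4 were within 2-fold, and TSHZ1 was at 3.69 in EC, 2.06 in EQ, and in the fibers 1.17 (FP) and 1.25 (FC), 2.38-fold lower in the fibers than in the epithelium.

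**Figure D4:**
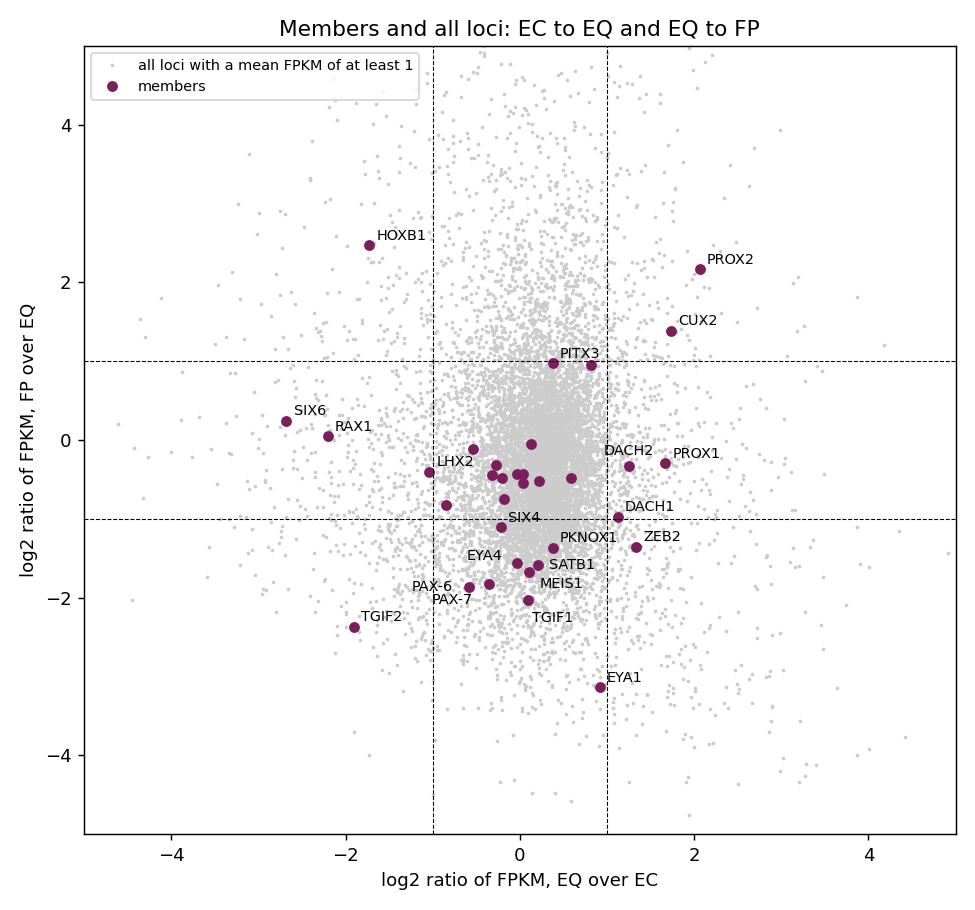
log2 ratio of FPKM from EC to EQ (horizontal axis) and from EQ to FP (vertical axis) for 34 of the 35 counted members (purple) and for all loci with a mean FPKM of at least 1 and a value above 0 in these regions (gray, within 5 on each axis), with dashed lines at 2-fold. SIX6 and RAX1 lie at the left at the level of no difference between EQ and FP, PROX2 and CUX2 at the upper right, and EYA1 and TGIF2 at the lower end.

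Several members were highest in the central epithelium and at least 2-fold lower already in EQ, among them early eye genes. SIX6 and RAX1 belong to the eye field, the tissue that gives rise to the retina. SIX6, at 54339069 to 54341868 of chromosome 5, was at 23.3 (5.37 to 24.4) in EC and 3.63 (1.25 to 5.94) in EQ, while FP had 4.30 (1.44 to 7.09) and FC 4.18 (1.15 to 7.19). The EC value of SIX6 lay near the upper bound of its own interval, and that interval overlapped slightly with those of the other 3 regions. RAX1 was at 2.87 (0.747 to 4.73) in EC and 0.622 (0.166 to 1.04) in EQ, while FP had 0.643 (0.166 to 1.12) and FC 0.978 (0.291 to 1.66). From EC to EQ, SIX6 was 6.40-fold lower and RAX1 4.61-fold lower, and between EQ and FP each stayed within 2-fold. LHX2, a LIM homeodomain gene of the eye field, was at 2.25 in EC and 1.09 in EQ, against 0.827 in FP and 0.313 in FC.

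Some markers of other cell types were also lower in EQ than in EC, and others were not. Of 17 names of neural retina and photoreceptor markers, 14 loci were found, and they summed to an FPKM of 179 in EC, 71.2 in EQ, and in the fibers 39.8 (FP) and 43.2 (FC). Of the 7 with a mean of at least 1, 3 were at least 2-fold lower in EQ than in EC, against 7.58% of all loci. None was as much higher, against 8.63%. The 3 lower loci were CRX (5.08 in EC and 0.293 in EQ), ATOH7 (3.88 and 0.419) and the merged locus of GNAT1 and SEMA3F, which made up most of the EC sum at 139.6. In the fibers CRX was at 1.02 (FP) and 0.964 (FC). ATOH7 was at 1.45 (FP) and 3.11 (FC), so that its FC value was near that of EC, unlike those of SIX6 and RAX1. Of the others, ELAVL4 was at 3.21 in EC and 6.33 in EQ, SYT1 at 0.497 and 0.774, RLBP1 at 13.1 and 13.4, and the counted locus of RBPMS at 8.46 and 6.63. The 7 loci found for erythroid markers summed to 760 in EC and 128 in EQ, against 165 in FP and 249 in FC, with the hemoglobin genes HBAA at 564 in EC and 94.1 in EQ and HBAD at 191 and 32.4. Pigment cell markers, 8 loci, summed to 9.96 in EC and 6.58 in EQ, against 6.70 in FP and 9.12 in FC. All of them but MITF (1.66 in EC and 2.94 in EQ) were lower in EQ than in EC, most at means below 1. PMEL was at 2.19 in EC and 0.755 in EQ, and at 3.29 in FC. Endothelial markers, 5 loci with means below 1, summed to between 1.45 and 3.60, highest in EC through VWF, at 1.72 in EC and 0.197 in EQ. CDH5 was also lower in EQ (0.548 and 0.375). KDR (0.943 and 1.43), TEK (0.239 and 0.260) and ERG (0.148 and 0.239) were higher in EQ. The 5 macrophage loci summed to between 7.96 and 26.6, highest in EQ through CD74 alone, at 8.69 in EC and 24.8 in EQ. CSF1R, MARCO, PTPRC and SPI1 were below 1 in all 4 regions. Of these, CSF1R (0.952 in EC and 0.730 in EQ), MARCO (0.891 and 0.290) and SPI1 (0.637 and 0.210) were lower in EQ, and PTPRC was at 0.439 and 0.496. The 8 loci of mesenchyme and cornea summed to between 16.6 and 28.5, highest in EC. Of the 3 with a mean of at least 1, COL1A2 (8.41 in EC and 2.74 in EQ) and KERA (15.3 and 13.8) were lower in EQ. DCN was higher in EQ (1.03 and 2.61), and was at 12.4 in FP. In pooled tissue such as this, fewer cells of a type and less RNA per cell cannot be told apart. The part of retinal, pigment or blood cells in the EC values of SIX6, RAX1 and LHX2 was not tested.

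**Figure D5:**
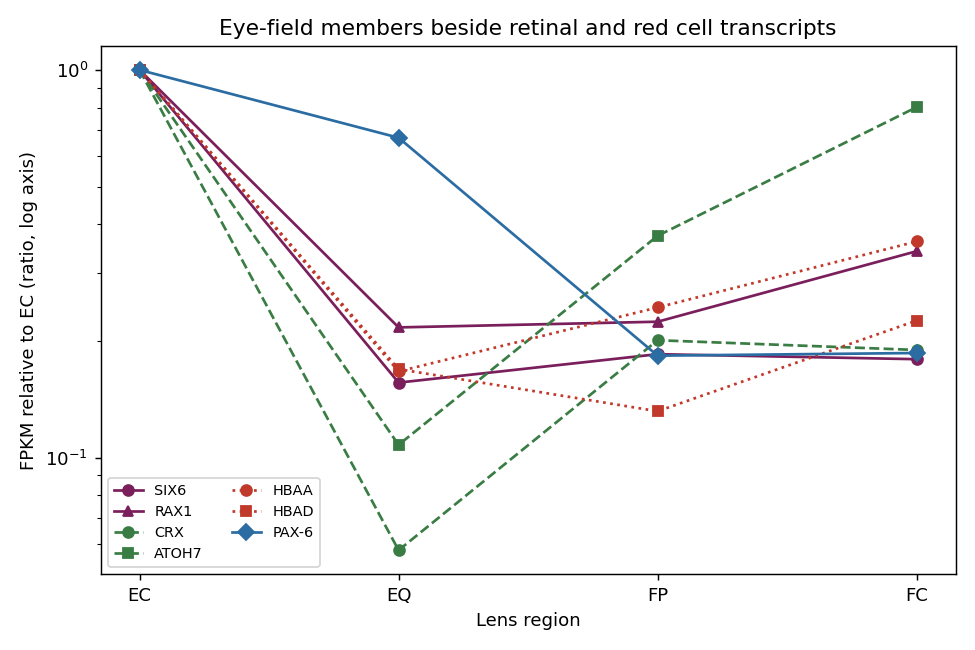
FPKM relative to EC (ratio, log axis) for SIX6 and RAX1 (purple), the retinal transcripts CRX and ATOH7 (green), the hemoglobin transcripts HBAA and HBAD (red) and PAX-6 (blue), where lines join the regions of a gene. CRX, ATOH7, HBAA and HBAD were picked for the plot after their values were seen, and the retinal markers ELAVL4, SYT1, RLBP1 and RBPMS, within 2-fold from EC to EQ, are not drawn. ATOH7 is at 3.88 in EC and again at 3.11 in FC. SIX6 drops from 23.3 in EC to 3.63 in EQ, while PAX-6 has its largest drop between EQ, at 208, and FP, at 57.0.

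When the 35 counted members were set beside all loci with a mean FPKM of at least 1 and a value above 0 on both sides of the ratio, the first step from EC to EQ divided them evenly. CUX2, DACH1, DACH2, PROX1, PROX2 and ZEB2, 6 of 35 (17.1%), were at least 2-fold higher in EQ, against 8.63% of all loci. Also 6, among them HOXB1, LHX2, RAX1, SIX6 and TGIF2, were at least 2-fold lower, against 7.58% of all loci. Of these, RAX1 and LHX2 reached the minimum mean of 1 through their EC values and HOXB1 through its fiber values, and with a minimum mean of 5 the lower members were 2, SIX6 and TGIF2, against 5.07% of all loci. A ratio of at least 2 together with separate intervals was found for 1 of 35, against 1.4% of all loci. The median log2 ratio was 0.03 over the members and 0.24 over all loci. With regions scaled to a common median ratio, 4 members were higher, DACH1 and DACH2 no longer being counted, and 7 lower, TSHZ1 being added, against 5.44% and 10.5% of all loci.

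From EQ to FP, more members were lower than higher. EYA1, EYA4, MEIS1, PAX-6, PAX-7, PKNOX1, SATB1, SIX4, TGIF1, TGIF2 and ZEB2, 11 of 35 (31.4%), were at least 2-fold lower in FP, against 25.3% of all loci, and CUX2, HOXB1 and PROX2, 3 of 35 (8.57%), were at least 2-fold higher, against 14.5% of all loci. EYA1 alone had separate intervals as well, against 4.99% of all loci, and lost them under both scalings given with EYA1 above. Among the members past 2-fold at this step, SIX4 reached the minimum mean through its epithelial values and HOXB1 through its fiber values. With a minimum mean of 5, which fewer members reach, 7 were lower, against 21.4% of all loci, and 2 higher, against 15.6%. The median log2 ratio was -0.48 over the members and -0.30 over all loci. With regions scaled to a common median ratio, 5 were higher, PITX1 and PITX3 being added, and 10 lower, against 19.0% and 17.0% of all loci. With the same total FPKM, 6 were higher and 5 lower, against 30.9% and 8.71% of all loci.

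Between FP and FC the members differed little, and so did all loci. LHX2 was 2.64-fold lower in FC at a level below 1 in both regions, 1 of 35 against 2.25% of all loci, and 0 of 35 were at least 2-fold higher, against 2.69%. With regions rescaled to the same total FPKM, HOXB1 and IRX5 were past 2-fold upward and LHX2 downward, against 8.22% and 1.12% of all loci. Separate intervals with such a ratio were found for 0 members and for 0.0377% of all loci. PITX3 and PAX6 differed by log2 ratios of 0.06 and 0.02 between the 2 fiber regions.

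Between the fibers and the epithelium, with FP and FC summed and divided by EC plus EQ, 14 of 35 members (40.0%) were at least 2-fold lower, against 23.5% of all loci, and 5 of 35 (14.3%) were at least 2-fold higher, against 16.7%. The lower members included EYA1, EYA4, LHX2, MEIS1, PAX-6, PAX-7, RAX1, SATB1, SIX4, SIX6, TGIF1, TGIF2 and TSHZ1. The higher were CUX2, HOXB1, PITX1, PITX3 and PROX2. Among the lower members, LHX2, RAX1 and SIX4 reached the minimum mean through their epithelial values, and among the higher HOXB1 did so through its fiber values. With a minimum mean of 5, which fewer members reach, 7 were lower, against 19.0% of all loci, and 3 higher, against 19.2%. In no member did both epithelial intervals lie apart from both fiber intervals (0 of 35, against 1.73% of all loci). Over any pair of the 4 regions, separate intervals were found for 4 of 35 (11.4%), PROX2, CUX2 and EYA1 among them, which is near the 10.4% of all loci. Of the 14 lower members, 9 had their largest decrease from EQ to FP, 4 (RAX1, SIX6 and TSHZ1 among them) from EC to EQ and LHX2 from FP to FC. The largest step was not computed for all loci. Of all loci, too, more were at least 2-fold lower from EQ to FP (25.3%) than from EC to EQ (7.58%). All 19 members past 2-fold kept their direction when regions were scaled by the median ratio or to the same total. Of them 10 were past 2-fold under both, 5 upward (CUX2, HOXB1, PITX1, PITX3 and PROX2) and 5 downward, among them EYA1, PAX-6, PAX-7 and TGIF2. HOXB1 and PITX1 were low, with intervals that reached 0 in EC, and for HOXB1 in EQ too. With 1 FPKM added to every value, 3 members were higher in the fibers, against 14.7% of all loci. With the same total, 7 members were higher and 5 lower, PROX1 and IRX5 being added to the former, against 43.6% and 7.20% of all loci.

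Seen by the region of highest level, 15 of the 35 counted members were highest in EC and 14 in EQ, against 2 in FP and 4 in FC. Over all counted loci the shares were 22.7%, 37.3%, 13.4% and 26.6%, against 42.9%, 40.0%, 5.71% and 11.4% of the members.

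The families that pattern the body axis, limbs, brain and heart had low FPKM in all regions, and no limit of detection was determined. Of 54 HOX loci, HOXB1 alone reached a mean of 1, at 0.724 in EC, 0.219 in EQ, and in the fibers 1.21 (FP) and 1.99 (FC), and the highest value in the family was 2.17, for HOXB4 in EC. Among the HOX loci, 32 share 1 listed span at 32797561 to 33229071 of chromosome 2, several under the same name, so reads of a HOXA gene may be divided among them, and 9 carry names of the antisense RNA HOXA11-AS1 and are listed at 0. None of the 16 MSX, DLX, EMX and NKX loci reached a mean of 1, and their highest value was 0.880, for DLX1 in EQ. LHX2 was the only one of 10 LIM homeodomain loci to reach it. OTX2, an activator of retinal and forebrain genes, was at 0.961 in EC and 0.143 in EQ, against 0.427 in FP and 0.336 in FC. POU2F1, a broadly used POU gene, was at 2.03 in EC and 1.14 in FC, within 2-fold at each step.

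Of the other regulators of the lens network, 13 loci were found for 17 names and 11 had a mean of at least 1. HSF4 is also on the list of fiber markers. SOX2 (7.49 in EC, 8.76 in EQ, and in the fibers 117 (FP) and 221 (FC)), HSF4 and MAF were at least 2-fold higher in the fibers than in the epithelium, and CITED2, SOX11, TEAD1, TFAP2A and YAP1, the effector of Hippo signaling, at least 2-fold lower. These are 3 and 5 of the 11 counted loci, against 16.7% and 23.5% of all loci. SOX11 and TEAD1 were close to the threshold, both at a log2 ratio of -1.10. Of 16 counted corepressor and cofactor loci, HDAC1, HDAC2, SIN3A and the Groucho protein TLE4, which sine oculis proteins can recruit, were at least 2-fold lower in the fibers and none was as much higher. These are 4 of 16 loci, near the share of all loci (23.5%), and HDAC1 and SIN3A were close to the threshold at log2 ratios of -1.08 and -1.02. HDAC2 was at 78.7 in EC and 92.4 in EQ, against 32.2 in FP and 33.5 in FC.

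The labels of the regions were checked against markers. Of 11 fiber marker loci, 10 were at least 2-fold higher in the fibers than in the epithelium, against 16.7% of all loci. CDH2 was the exception. The beaded filament gene BFSP1 was at 77.9 in EC and 14305 in FC. Of the epithelial markers, FOXE3 was below 1 in all 4 regions. CDH1 was at 2.82 in EC and 2.35 in EQ, against 1.27 in FP and 2.09 in FC. It stayed within 2-fold from EC to EQ and between the fibers and the epithelium. PDGFRA was highest in EQ, at 88.8, against 17.5 in EC, 8.79 in FP and 12.4 in FC, and at least 2-fold lower in the fibers than in the epithelium. PDGFRA thus set EQ apart from the fibers. Its summed ratio rested on EQ, since its EC value of 17.5 was far nearer to those of FP and FC than to that of EQ. None of these markers set EC apart from EQ as a counted locus higher in EC.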

How the data were processed

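The authors removed adaptors, aligned reads to Galgal4 (TopHat), estimated abundance (Cufflinks) and combined the 2 libraries of each region (Cuffdiff 2.1.1). The deposited table holds FPKM values, 1 per region, with 95% intervals, and delta-crystallin was left out of that run. A further deposited table holds the authors' own comparisons (fold changes, p-values and q-values) and was not used.

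Members were matched by gene name. Ratios were taken with no value added, at loci with a mean FPKM over the 4 regions of at least 1 and a value above 0 on both sides, with a threshold of 2. Intervals were given for members with a mean of at least 5, or with such a ratio and separate intervals, as a rule for the genes named. Intervals of PAX7 and RAX1 were added after their values were seen. The members and lists were chosen with earlier results of these data known. The ratio and interval steps were tested on simulated data. Of the 112 names, 102 matched a RefSeq symbol and 2 a synonym (assembly GRCg7b), which was used for names alone. Alternatives changed the added value, filter, scaling, threshold and loci used. Python 3.11.15, numpy 2.4.6, pandas 2.3.3 and matplotlib 3.10.9 were used. Some members and markers are not reported here by name or drawn, but are kept in the counts and sums.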

Additional observations from a re-analysis of the deposited data

How the results depend on the processing

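The FPKM values are pooled, so the spread between libraries and the effect of leaving out a library were not analysed here. No paired analysis was possible because the table used gives 1 pooled value per region; reads were not analysed here. The median log2 ratio of all loci moved by -0.26 from EC to EQ, 0.30 from EQ to FP and -0.10 from FP to FC under scaling by the median ratio, and by 0.02, 0.78 and 0.39 with the same total.

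Counts are of members past the fold, and the values that differed by over 1.5 times from those in the report follow. The share of all loci past the fold under the same setting stands in brackets after each such count. No share is given for counts of separate intervals under a changed filter or scaling, so those counts have no background here. With no filter or a mean of at least 5, the number of members counted differs from 35. With 1 FPKM added, 0 were lower from FP to FC (2.24%) and 3 higher in fibers (14.7%). With no filter, where low values enter, 13 were higher (8.35%) and 28 lower (12.6%) at the first step (EC to EQ). At the next (EQ to FP) these counts were 23 (17.1%) and 22 (22.1%). From FP to FC they were 9 (4.83%) and 22 (6.80%), and in fibers 12 (15.5%) and 26 (22.3%). With a mean of at least 5, 2 were lower from EC to EQ (5.07%), 7 from EQ to FP (21.4%), 0 from FP to FC (1.16%) and 7 in fibers (19.0%). Under this filter 3 were higher in fibers (19.2%), and 0 had separate intervals from EC to EQ. Scaling by the median ratio gave 5 higher from EQ to FP (19.0%), and separate intervals for 2 at the first step and 0 at the next. The same total gave 6 higher (30.9%) and 5 lower (8.71%) from EQ to FP and 2 higher from FP to FC (8.22%). It also gave 5 lower in fibers (7.20%) and 1 with separate intervals in fibers. At a fold of 3, 3 were higher from EC to EQ (3.52%) and 7 lower from EQ to FP (11.3%). At that fold 0 were lower from FP to FC (0.810%) and 3 higher in fibers (10.03%). Where intervals had to be separate, 1 was lower at the first step (0.620%), 1 at the second (2.56%), and 0 in all other comparisons and directions (0% to 2.42%). Leaving out merged loci or loci outside their own interval altered no count of members, since no member was either.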
